A study of Mus musculus with 120 samples.

Results

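The cells described here are murine group 2 innate lymphoid cells (mILC2s) that were followed one at a time with interleukin-5 (IL-5) as the index cytokine. The 11 cells labelled Silent received the stimulus and gave no IL-5 secretion signal, and the 5 cells labelled Pre-stimulation were recovered before it was added. Together they are 16 of the 120 single-cell libraries of the series. The cells were chosen by these labels alone, with no measured value beyond a minimum of 10000 reads in genes. Silent replicate 7, with 2152 such reads, was left out, so that 10 silent cells were compared with 5 resting ones.

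Every cell came from wildtype C57BL/6 mice, the usual source being, in the study's methods, retired females from breeding, with no age given for these cells in the sources used here. The mesenteries of 20 animals were pooled, and lineage-negative cells positive for c-Kit and Sca-1 were kept by the sort. The sorted cells were grown for months in IL-2 before the assay, and the silent cells were then held with IL-2 and IL-33. The study's methods place the recovery of silent cells at a fixed time, hours after stimulation began. The labels tie no cell to a mouse or to a culture, so each state counts as 1 sample. Cells are not replicates of a state, and for this reason no test was run and no p-value is given. Intervals below are exact 95% intervals that cover counting error only, since the reads carry no molecular identifiers. cDNA from 5 or 6 cells was pooled before tagmentation, and the resting cells carry only the first of 2 dates in the sample titles, so library pool and state cannot be told apart.

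ILC2s are tissue-resident lymphocytes without antigen receptors that release IL-5, IL-13 and other type 2 cytokines when neighbouring cells send out IL-33. IL-33 binds ST2, the product of Il1rl1, and acts through MyD88, the IκB kinases and MAP kinases on the NF-κB and AP-1 families of transcription factors. IκBα (Nfkbia) and A20 (Tnfaip3) are themselves NF-κB target genes and hold the pathway back, while IL-2 acts through STAT5. A silent cell is defined by the protein it did not release, and its transcripts played no part in the label.

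The 250 bases before the start of the index cytokine gene, of 3 genes of the NF-κB group and of Alox5, the largest fall among the genes the naming rule picked, are shown first because the results below turn on these genes. The sequences are those of RefSeq on GRCm38.p6, read 5′ to 3′ along the gene's strand. Capitals mark letters that match a κB pattern (GGGA, any 4 bases, then CC) searched on both strands, or TGANTCA, the AP-1 pattern, which reads alike on both strands.
Il5 (chr11:53720544-53720793, plus strand): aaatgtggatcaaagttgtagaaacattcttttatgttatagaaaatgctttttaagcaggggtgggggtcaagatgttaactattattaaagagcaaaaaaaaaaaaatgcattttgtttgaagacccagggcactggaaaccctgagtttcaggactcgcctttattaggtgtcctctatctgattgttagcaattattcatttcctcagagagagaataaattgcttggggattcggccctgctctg
Nfkbia (chr12:55492648-55492897, minus strand): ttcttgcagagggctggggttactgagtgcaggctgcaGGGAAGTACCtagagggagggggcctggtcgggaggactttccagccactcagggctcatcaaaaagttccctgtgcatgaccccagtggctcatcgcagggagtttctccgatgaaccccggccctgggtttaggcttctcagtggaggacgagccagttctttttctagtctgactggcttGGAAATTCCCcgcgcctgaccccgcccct
Tnfaip3 (chr10:19015411-19015660, minus strand): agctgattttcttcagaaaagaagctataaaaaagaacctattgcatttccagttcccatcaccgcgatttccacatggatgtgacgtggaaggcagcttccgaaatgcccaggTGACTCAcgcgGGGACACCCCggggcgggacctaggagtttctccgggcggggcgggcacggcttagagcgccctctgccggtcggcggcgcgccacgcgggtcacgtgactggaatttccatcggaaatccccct
Rel (chr11:23770970-23771219, minus strand): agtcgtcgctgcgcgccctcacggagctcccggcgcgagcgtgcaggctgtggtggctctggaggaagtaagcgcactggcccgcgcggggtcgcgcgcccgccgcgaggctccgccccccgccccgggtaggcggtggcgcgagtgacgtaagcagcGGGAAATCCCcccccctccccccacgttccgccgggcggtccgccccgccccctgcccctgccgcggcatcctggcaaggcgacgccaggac
Alox5 (chr6:116461179-116461428, minus strand): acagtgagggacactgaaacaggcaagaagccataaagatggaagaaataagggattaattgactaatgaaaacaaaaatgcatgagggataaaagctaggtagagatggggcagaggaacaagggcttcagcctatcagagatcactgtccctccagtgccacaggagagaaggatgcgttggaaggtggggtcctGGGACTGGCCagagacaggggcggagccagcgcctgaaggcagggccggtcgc

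No letters in the Il5 window matched these patterns, and none did in the window of Csf2, whose letters are not shown. The Nfkbia window held 2 κB matches, whose first bases lay 29 and 212 bases before the start. In the Tnfaip3 window a κB match began 125 bases and an AP-1 match 136 bases before the start, and the Rel window held 1 κB match, on both strands, at 92 bases. Alox5, which was lower, also held a κB match, at 53 bases. A match describes letters only and is no evidence of a bound site.

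The 5 resting cells held 133373 to 306589 reads in genes and the 10 silent cells 175331 to 404712. Mitochondrially encoded transcripts made up 1.68% to 3.36% of the reads of resting cells and 0.357% to 2.76% of those of silent cells, and genes with Rpl or Rps symbols 16.7% to 27.9% and 10.7% to 21.5%. Of the 13 markers of ILC2s, 10 were abundant enough to compare, and Gata3, Il2ra and Ly6a had reads in all 15 cells, while Ptgdr2, the CRTH2 gene, had none. No marker of macrophages and dendritic cells (10 genes) or of NK cells, ILC1 and ILC3 (10 genes) had a read in any of the 15 cells. Cd3g, a subunit of the T-cell CD3 complex, had reads in 2 resting cells (3643 CPM in replicate 2 and 1254 CPM in replicate 3) and in 2 silent cells (2.79 and 318 CPM). The summed level of the 10 T-cell markers ranged from 280.1 to 3643 CPM in resting cells and from 3.35 to 1677 CPM in silent cells, and the reads came from Cd3g, Trbc1 and Trbc2, the other 7 having none. Ighm, the only B-cell marker of 7 with a read, had reads in 3 cells of each state. Of these markers of other cells, Cd3g and Ighm were lower in silent cells (−5.40 and −2.19), at −3.69 for Cd3g without resting replicate 2 and −10.12, set by the floor, without silent replicate 3, and at −1.65 for Ighm without resting replicate 3. Markers of mast cells (8 genes), stromal cells (10) and red cells (5) were each too low to compare, at no more than 169.9, 80.5 and 133 CPM in any cell. The part of these cells in the differences below was not tested.

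Values are reads of a gene scaled to a total of 1000000 reads in genes (CPM). The level of a state is the CPM of reads summed over its cells, and a difference is the log2 ratio of silent to resting levels. A state with fewer than 3 reads was set to 3 reads over the state, and where it had none the fold is given as "at least" and the log2 value is likewise a bound. These bounds rest on the 3-read floor. The exact interval of a state without a read reaches higher, to 3.04 CPM in resting and 1.20 CPM in silent cells. Where a state held 1 to 3 reads, the ratio printed with an interval is the one without this floor. Values without 1 cell keep the floor, so that they are bounds where the cells that remain hold no read and are set by the floor where they hold 1 or 2. A gene was compared where the mean of both states reached 50 CPM, and the word higher or lower below stands for a difference of at least 4-fold unless a smaller value is printed.

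Silent cells differed from resting cells in both directions. Of 2825 genes compared, 401 (14.2%) were higher and 510 (18.1%) lower in silent cells, and the median over all 2825 was −0.16. Of the higher genes 389 (13.8% of those compared) remained at least 2-fold higher without any 1 cell and by the mean of the cells' own CPM, and 313 (11.1%) of the lower genes remained as far lower. The 2 numbers are not compared, because lower genes rest on 5 cells and higher genes on 10, with more reads. The same holds for the shares with no read that follow. Among the 401 higher genes, 195 (48.6%) had no read in any resting cell, and 41 had a read in every silent cell. Among the 510 lower genes, 96 (18.8%) had no read in any silent cell, 70 had a read in every resting cell, and 82 had reads in only 1 resting cell. With DESeq2 size factors the median over all genes was −0.32 in place of −0.16, and 357 genes were higher and 603 lower. Against the resting cells of both indexes 262 of the 401 higher and 247 of the 510 lower genes kept their call. A minimum mean of 10 CPM gave 1808 higher and 1286 lower genes.

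**Figure D1:**
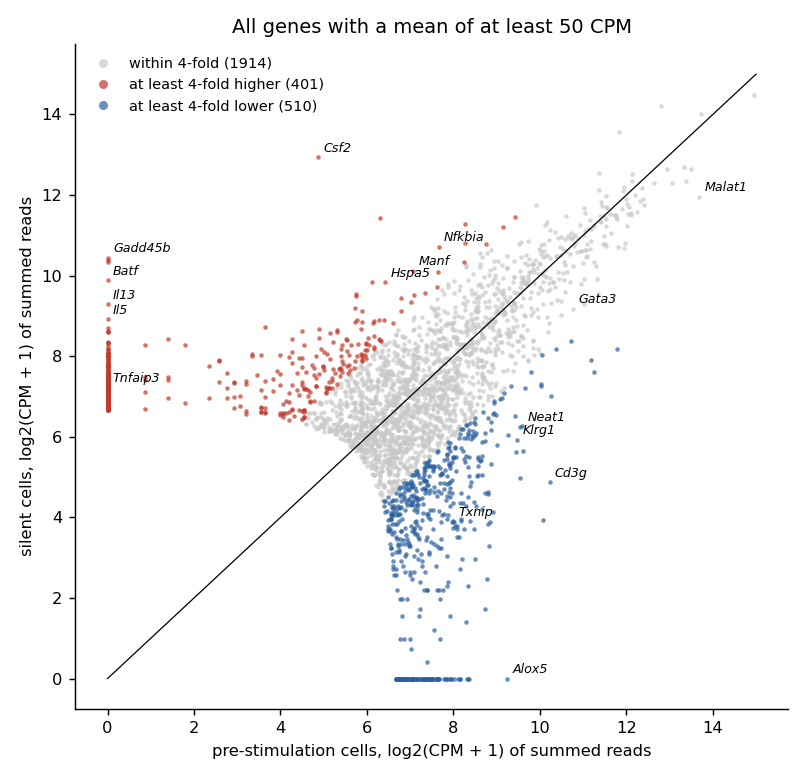
Levels of the 2825 genes compared, as log2(CPM + 1) of summed reads, in the 5 pre-stimulation cells (horizontal) and the 10 silent cells (vertical), with the line of equal levels. The 401 genes at least 4-fold higher (red) include a column at 0 reads in the resting cells, and the 510 genes at least 4-fold lower (blue) include a row at 0 reads in the silent cells.

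Cytokine transcripts were present in cells that released no detectable IL-5. Il5 itself (ENSMUSG00000036117, chr11:53720794-53725106 on GRCm38) had no read in any of the 5 resting cells, whose summed level was set to the floor of 2.48 CPM (3 reads). In the 10 silent cells it ranged from 0 CPM in replicate 11 through a median of 63.6 CPM to 6576 CPM in replicate 6. A read was thus seen in 9 of 10 silent cells, though in replicate 2 the level was only 2.79 CPM. The summed level was 482 CPM (457.5 to 507), at least 195-fold above the resting cells (log2 7.60). Silent replicate 6 supplied 78.1% of these reads, and without it the log2 bound was 5.50. The first title date alone gave 5.75.

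Il13 (chr11:53631324-53634702), which lies in the same type 2 cytokine cluster as Il5 and Il4, was likewise at 0 in every resting cell. It had reads in 8 of 10 silent cells, with a lowest value of 0, a median of 232 and a highest of 5162 CPM, the last again in replicate 6. The summed level was at least 253-fold higher (log2 7.98, and 7.15 without silent replicate 6). Silent replicate 11, the cell without Il5, held 1040 CPM of Il13, while replicates 4 and 10, without Il13, held 63.6 and 352 CPM of Il5. The 2 transcripts were therefore not always found in the same cells.

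Csf2, which encodes GM-CSF, was present in every silent cell. Resting replicates 1 to 5 held 0, 0, 128, 0 and 0 CPM. The silent cells ranged from 25.8 CPM in replicate 10 through a median of 4077 to 25980 CPM in replicate 3, with no cell at 0. Only silent replicate 10 lay below the one resting cell with Csf2. The log2 ratio was 8.12 (7.64 to 8.65), and at least 11.27 without resting replicate 3, when no resting read was left.

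Calca, which encodes the neuropeptide precursor of CGRP, was present at 0, 307, 3.78, 0 and 0 CPM in the resting cells. In silent cells it ranged from 7.41 through a median of 1288 to 14400 CPM, and 7 of the 10 were above every resting cell. The log2 ratio was 5.13 (4.84 to 5.44), and 9.70, set by the floor, without resting replicate 2. Il4 behaved differently. It was seen in 4 of 5 resting cells (0, 3.26, 7.55, 126 and 565 CPM) and in 5 of 10 silent cells (0 to 429 CPM), with a log2 ratio of −0.41 (−0.69 to −0.13). Its sign turned without resting replicate 5 (1.32), for the first title date alone (0.33) and against the resting cells of both indexes (0.43). Il9 gave 10 reads in 3 silent cells and none at rest, and Il6 averaged 36.6 CPM from 4 silent cells, below the limit for comparison. Of 16 cytokine genes on the list 5 were compared, of which 4 (80.0%, against 14.2% of all genes) were higher and 0 lower. Summed over the list, every silent cell (644 to 42590 CPM) lay above every resting cell (7.50 to 629.5 CPM).

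**Figure D2:**
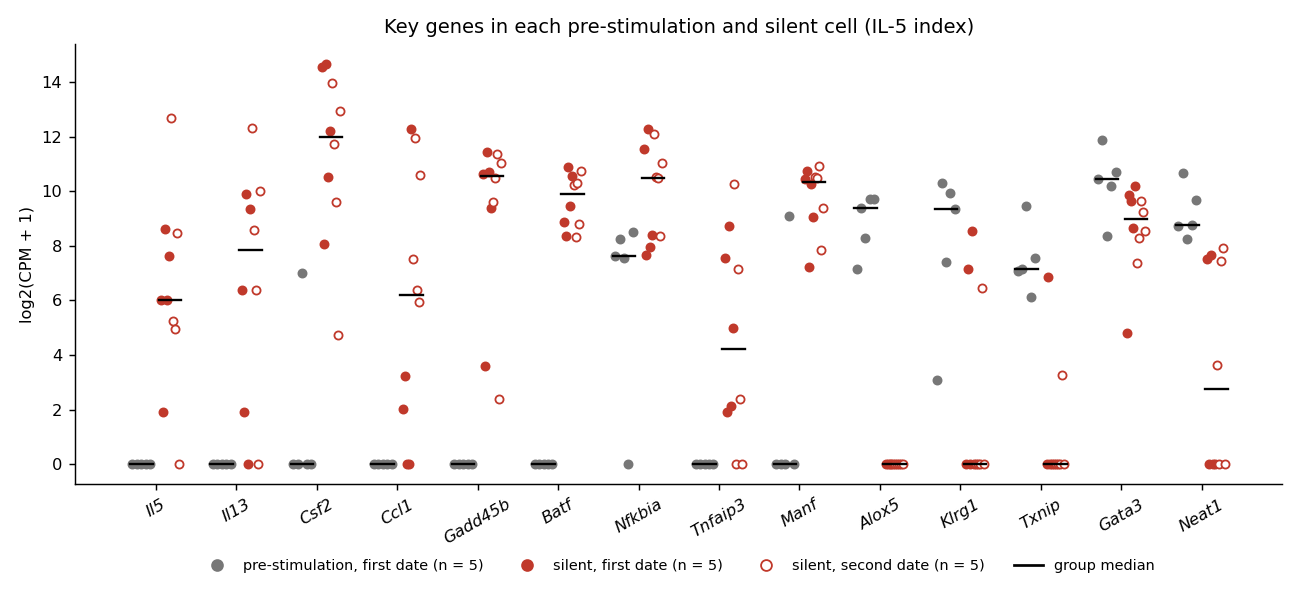
Levels of 14 genes in each of the 5 pre-stimulation cells (grey) and 10 silent cells (red, open for the second title date), as log2(CPM + 1), with the median of each state as a line. Il5, Il13, Ccl1, Gadd45b, Batf and Tnfaip3 sit at 0 in every resting cell, and Alox5 at 0 in every silent cell.

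The chemokine gene Ccl1, whose product attracts CCR8-bearing T cells and ILC2s, was at 0 in all resting cells. It had reads in 8 of 10 silent cells, from 0 through a median of 71.8 to 4978 CPM in replicate 5, and the summed level was at least 519-fold higher (log2 9.02, and 8.32 without silent replicate 5). Most of it came from replicates 5, 8 and 11, each over 1000 CPM. Cxcl2 rested on a single cell: silent replicate 1 held 1558 CPM, or 91.8% of its reads, and the log2 bound went from 6.21 to 2.77 without it. These were the 2 chemokine genes of 12 that could be compared.

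By its lower bound, the largest rise among the genes the naming rule picked was that of Gadd45b (chr10:80930073-80932204), an early stress-response gene and known NF-κB target that protects lymphocytes during activation. It had no read in the resting cells and reads in all 10 silent cells. The silent cells ranged from 4.29 CPM in replicate 10, which is a single read, and 11.2 CPM in replicate 2 to 2799 CPM in replicate 3, with a median of 1524. The summed level was at least 562-fold higher (log2 9.14). Its relative Gadd45g was spread differently: 4 silent cells held 368 to 1261 CPM and the other 6 held 2.47 to 17.1 CPM, while the resting cells held 0, 0, 162, 0 and 4.67 CPM (log2 3.16, and 6.68, set by the floor, without resting replicate 3). Rrad, a small GTPase gene, was at least 90.6-fold higher (log2 6.50), with 77.3% of the reads in silent replicate 8 (log2 4.57 without it). Of the 5 Egr, Nr4a, Ier and Gadd45 genes compared, these 3 (60.0%, against 14.2% of all genes) were higher and 0 lower.

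Batf (chr12:85686669-85709087), which encodes an AP-1 factor required for type 2 cytokine programmes in lymphocytes, was high in every silent cell. It was at 0 in each resting cell and between 319 and 1877 CPM in each silent cell, with a median of 945. The summed level was at least 384-fold higher (log2 8.58), and the lowest value on leaving out any 1 cell was 8.16. The resting cells labelled with the IL-13 index did hold Batf in 2 of 5 cells (up to 269 CPM), and with them added the log2 ratio was 4.13. Junb, another AP-1 gene, was at 0, 62.0, 3.78, 0 and 145 CPM at rest and at 0, 101 and 1503 CPM (lowest, median and highest) in silent cells, a log2 ratio of 2.89 (2.48 to 3.33), or 2.23 without silent replicate 3 and 3.96 without resting replicate 5. Mafg was lower (−2.27), with reads in 2 resting and 3 silent cells. It came within 4-fold without resting replicate 2 (−1.27) or 4 (−1.99) and was at −4.00 without silent replicate 2. Of 13 AP-1 family genes only these 3 were compared. Of the 3, 2 were higher (66.7%, against 14.2% of all genes) and 1 lower (33.3%, against 18.1%).

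Genes of the NF-κB system were mostly higher: of the 10 compared, 7 (70.0%, against 14.2% of all genes) were higher and 0 lower. Their median was 2.67. Nfkbia, the IκBα gene, stood at 195, 300.1, 185, 0 and 359.5 CPM at rest. The silent cells ranged from 204 through 1453 to 4961 CPM, so that the 4 lowest of them overlapped the resting range. The log2 ratio was 3.06 (2.88 to 3.26). Nfkbib, the IκBβ gene, had no resting read and was found in 8 of 10 silent cells (median 168, highest 480.1 CPM), at least 72.0-fold higher (log2 6.17).

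Tnfaip3, whose product A20 edits ubiquitin on signalling adaptors, was at 0 in the resting cells and at 0, 17.5 and 1238 CPM (lowest, median and highest) in silent cells. Silent replicate 6 held 47.6% of its reads, and the log2 bound was 5.91 with and 5.06 without this cell. Rel, the c-Rel subunit, was absent at rest and present in 7 of 10 silent cells (median 88.7, highest 475 CPM), at least 59.9-fold higher (log2 5.90). Nfkb1, the p105 and p50 subunit gene, was already present in 4 of 5 resting cells (690, 248, 98.2, 0 and 4.67 CPM) and in all silent cells (136 to 1991 CPM). Its log2 ratio of 2.23 fell short of 4-fold without resting replicate 4 (1.83) or 5 (1.96), and was 2.98 without resting replicate 1. Nfkb2 (1.89) and Nfkbiz (1.48) were less than 4-fold apart over all cells, but resting replicate 2 held most of their resting reads, and without it they were at 4.08 and 2.69. The other 2 higher members, named after their values were seen, were Relb (at least 43.1-fold, 4 silent cells) and Birc3, an inhibitor of apoptosis (log2 2.27, with 92.3% of the resting reads in replicate 1). Leaving out 1 cell took Relb to a lowest log2 bound of 4.37 and Birc3 to between 1.85 and 5.80.

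Among 9 STAT5 targets and feedback genes compared, 3 (33.3%, against 14.2% of all genes) were higher and 0 lower. These 3, named after their values were seen, were Pim2, a survival kinase (at least 65.4-fold, 6 silent cells), Bcl2l1, which encodes BCL-XL (at least 47.2-fold, 4 silent cells), and Stat5a (at least 80.7-fold, 4 silent cells). Their lowest log2 bounds on leaving out 1 cell were 5.35, 4.28 and 5.59. Cish, a STAT5-induced feedback gene, was in 3 resting and all 10 silent cells with a log2 ratio of 1.71, or 2.76, past 4-fold, without resting replicate 2. Bcl2 went the other way, at −1.91, from a resting level of 217 to 1729 CPM. Its silent cells held 0 to 253 CPM except replicate 6, with 3040 CPM, and the log2 ratio was −3.30 without that cell. Bcl2a1d, another anti-apoptotic family member and one of several near-identical A1 copies whose reads may be shared, was at least 107-fold higher (log2 6.74) and had reads in 8 silent cells.

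Over all cells, the receptors for the stimulus were less than 4-fold apart, though not at every setting. Il1rl1, the IL-33 receptor gene, was at 1567, 1960, 1631, 904 and 1587 CPM in the resting cells and ranged from 0 in replicate 2 through 428 to 3784 CPM in replicate 11. The log2 ratio was −0.99 (−1.08 to −0.90), but it was −1.79 without silent replicate 11 and −2.79 for the first title date alone, so the size of this difference rested on few cells. Il2ra, the high-affinity IL-2 receptor chain, was at 1.91 (1.73 to 2.10), or 2.37 without resting replicate 3 and 2.09 without replicate 4, and Il2rg, the common γ chain, was at −0.17. Il4ra, named after its values were seen, was the 1 receptor of 7 beyond 4-fold (−3.30, and −4.46 to −2.86 on leaving out 1 cell), with reads in 2 of 10 silent cells. The share of lower receptors, 14.3%, was near the 18.1% of all genes, and the median over the 7 was −0.17.

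Costimulatory and checkpoint genes were divided, with 2 of 6 higher and 2 lower (33.3% each, against 14.2% and 18.1% of all genes). Their median was −0.23, and 0.10 for the first title date alone. Tnfrsf9, the 4-1BB gene, had reads in 1 resting cell (119 CPM in replicate 4) and in 8 silent cells (0, 242 and 865 CPM), for a log2 ratio of 3.60 (at least 6.74 without resting replicate 4). Cd44, the hyaluronan receptor gene, rested on 6 reads in 1 resting cell and on 7 silent cells of up to 924 CPM (5.58, interval 4.45 to 7.03, and at least 6.23 without resting replicate 3). Klrg1, an inhibitory receptor that marks mature ILC2s, was at 7.50, 1275, 169.9, 982 and 654 CPM at rest. It had no read in 7 of 10 silent cells and at most 375 CPM in the rest, for a log2 ratio of −3.58 (−3.82 to −3.35), or −4.80 without silent replicate 4. Cd200r1, another inhibitory receptor gene, had reads in all 5 resting cells (839.8, 469.7, 193, 423 and 9.34 CPM) and in 3 silent cells (up to 125 CPM), with −4.17 (−4.58 to −3.78), or −5.68 without silent replicate 9.

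Genes linked to quiescence were lower or within 4-fold, at 4 of 9 (44.4%, against 18.1% of all genes) lower and 0 higher with a median of −1.47. Txnip, which restrains glucose uptake, stood at 135, 140.3, 702, 68.2 and 187 CPM at rest and had reads in 2 silent cells, at 8.59 and 114 CPM (−4.17, interval −4.67 to −3.71). Without silent replicate 2, which held 95.3% of the silent reads, the log2 ratio was −7.83, set by the floor, and without resting replicate 3 it was −3.19. Klf13, a Krüppel-like repressor gene, was at 172, 444, 0, 358 and 896 CPM at rest and had reads in 2 silent cells of up to 306 CPM (−3.14, and −5.60 without silent replicate 5). The other 2, named after their values were seen, were Klf3 (at least 125-fold lower) and Cdkn1b, the p27 cell-cycle inhibitor gene (at least 115-fold lower). Both had reads in 3 resting cells and in no silent cell, and their smallest log2 values on leaving out 1 cell were −5.93 and −6.01.

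Gata3, the master regulator of ILC2s, was at 1402, 3741, 329, 1177 and 1671 CPM at rest and at 27.2, 502 and 1176 CPM (lowest, median and highest) in silent cells. The log2 ratio was −1.59 (−1.68 to −1.50), or −0.89 without resting replicate 2. Rora was at 1.60 (2.55, past 4-fold, without resting replicate 4) and Id2 at 0.20. Ets1 was lower (−2.55, interval −2.98 to −2.14), with reads in 4 of 5 resting and 2 of 10 silent cells (−3.88 without silent replicate 3). Maf, named after its values were seen, was also lower (−3.57, and −4.54 to −2.74 on leaving out 1 cell). Of the 8 compared these 2 (25.0%, against 18.1% of all genes) were lower and 0 higher, with a median of −0.82. Among the 10 ILC2 markers, which overlap these lists, Klrg1 and Thy1 (named after its values were seen) were lower and 0 higher, again near the 18.1% of all genes. Thy1 was at −2.22, and on leaving out 1 cell it ranged from −4.32 to −1.01, so its call rested on 1 cell.

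Genes for lipid mediators and amines included a gene with no read in any silent cell. Alox5 (chr6:116410077-116461178), which encodes the 5-lipoxygenase that starts leukotriene synthesis, was at 142.5, 665, 309.7, 849 and 840.3 CPM in the resting cells. It had no read in any of the 10 silent cells, whose summed level was set to the floor of 0.979 CPM, and the states did not overlap. The summed level was at least 618-fold lower (log2 −9.27), and the values on leaving out any 1 cell lay between −9.46 and −9.07. Downstream, Lta4h, the leukotriene A4 hydrolase gene, was higher instead (2.88), from 1 resting cell (412 CPM in replicate 1) and all 10 silent cells (19.8, 164 and 1181 CPM), but reached 1.91 against the resting cells of both indexes and at least 6.91 without resting replicate 1. Of the 8 genes compared 2 (25.0%) were higher and 4 (50.0%) lower, against 14.2% and 18.1% of all genes.

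The receptor genes Ptgir (prostacyclin) and Cysltr1 (cysteinyl leukotrienes) were lower, at −3.45 and −2.05. Ptgir had reads in 4 resting and 2 silent cells, 96.8% of the silent reads being in replicate 3 (−7.71, set by the floor, without it). Cysltr1 had reads in all 5 resting cells (509.8, 375, 117, 709 and 79.4 CPM) and in 4 silent cells (up to 465 CPM), and it came within 4-fold against the resting cells of both indexes (−1.52). Leaving out 1 cell also brought it within 4-fold for 8 of the 15 cells, the smallest value being −1.53 without resting replicate 4, whereas it was −3.15 without silent replicate 9. Tph1, the enzyme of serotonin synthesis, was at least 545-fold higher, yet its reads came almost entirely from silent replicates 6 and 8 (4152 and 8381 CPM), and the log2 bound of 9.09 was 6.81 without replicate 8. All silent cells of the first title date were at 0 for Tph1, so its rise and the second date cannot be told apart.

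**Figure D3:**
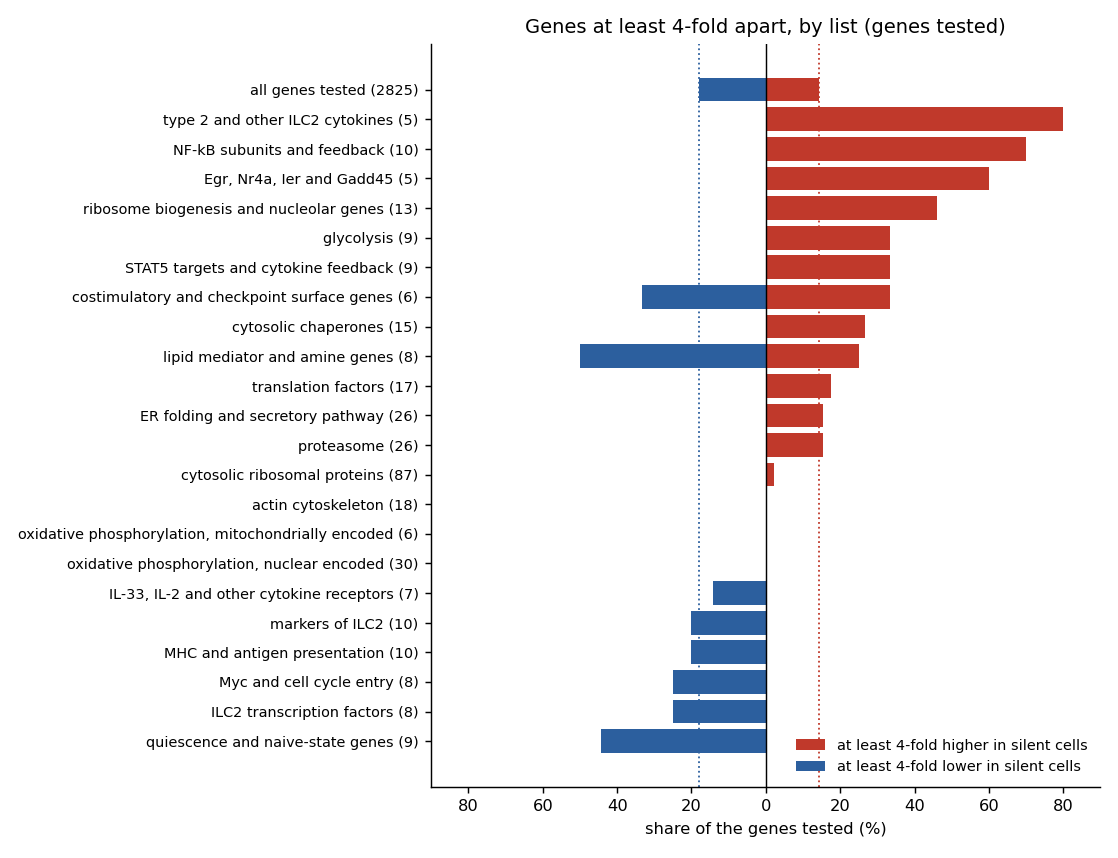
Share of the genes compared in each list that were at least 4-fold higher (red, to the right) or lower (blue, to the left) in silent cells, for lists with 5 or more genes compared (number in parentheses). Dotted lines mark the 14.2% and 18.1% of all genes compared; cytokine and NF-κB genes reach 80.0% and 70.0% higher, and lipid mediator genes 50.0% lower.

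Of the genes that make ribosomes 13 were compared, and 6 of them (46.2%, against 14.2% of all genes) were higher and 0 lower, with a median of 1.80. Nop10, a core protein of H/ACA ribonucleoproteins, was at 7.50, 206, 412, 447 and 327 CPM at rest and at 8.59, 1643 and 3895 CPM (lowest, median and highest) in silent cells. Its log2 ratio of 2.54 (2.39 to 2.70) was 1.26 against the resting cells of both indexes. Dkc1, its pseudouridine synthase partner, had no resting read and was in 7 silent cells (at least 47.1-fold, log2 5.56, and 4.89 without silent replicate 4). Ncl and Npm1, the abundant nucleolar proteins, were at 1.80 and 1.58 (Npm1 at 2.01 without resting replicate 5). Genes with symbols that begin with Rpl or Rps are mostly ribosomal proteins but include some others such as the kinase gene Rps6ka1. Of these, 2 of 87 (2.30%, against 14.2% of all genes) were higher and 0 lower, with a median of −0.07. The 2 were the paralogues Rpl7l1 (at least 102-fold) and Rps27l (2.04), the latter short of 4-fold without resting replicate 5 (1.77) or 4 (1.88).

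Of 17 translation factors 3 (17.6%, near the 14.2% of all genes) were higher and 0 lower, with a median of 1.08. Eif4ebp1, a brake on cap binding controlled by mTOR, was at 3.26 (2.32 without silent replicate 5 and at least 7.45 without resting replicate 3). Eif3b was at 2.38, with a lowest value of 1.95 without resting replicate 2 and a highest of 6.14, set by the floor, without resting replicate 3. Eif2s2 was at 2.10, or 1.82 without resting replicate 5 and 1.58 against the resting cells of both indexes. Eif2s2 was at 195, 300.1, 309.7, 126 and 0 CPM at rest and at 318 CPM or more in every silent cell. In glycolysis 3 of 9 (33.3%, against the same 14.2%) were higher and 0 lower, with a median of 1.10. Tpi1, triosephosphate isomerase, had no resting read and was in 9 silent cells (at least 156-fold), but 3.00 on the log2 scale against the resting cells of both indexes. Pgam1 was at 2.83 (6.10, set by the floor, without resting replicate 3), and Pkm, pyruvate kinase, at 2.44 (1.82 without silent replicate 2). Gapdh was within 4-fold.

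Among proteasome genes 4 of 26 (15.4%, near the 14.2% of all genes) were higher and 0 lower, with a median of 0.95. Summed over the 27 genes of the list, each silent cell (9163 to 18920 CPM) lay above each resting cell (4818 to 8581 CPM). Psmc1, an ATPase of the regulatory particle, had 1 read in the resting cells and reads in 8 of 10 silent cells (median 315, highest 811 CPM), for a log2 ratio of 8.55 (6.06 to 13.85) without the 3-read floor and 6.96 with it. Against the resting cells of both indexes it was 2.37. Psma5 (2.65), Psmd11 (2.69) and Psmd14 (2.06) were each found in 1 resting cell, without which they were at least 5.47, 6.00 and 6.66. Without silent replicate 8 Psmd11 was at 2.10. Against the resting cells of both indexes these 3 came within 4-fold, at 1.86, 1.97 and 1.73, and leaving out resting replicate 2 brought Psmd14 to 1.64.

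Genes of the endoplasmic reticulum and secretory pathway were close to the background. Of 26 compared, 4 (15.4%, near the 14.2% of all genes) were higher and 0 lower, with a median of 0.42. Manf, a folding-stress factor, was at 0, 0, 0, 552 and 0 CPM at rest and at 148, 1311 and 1929 CPM (lowest, median and highest) in silent cells, at 3.06 (at least 8.41 without resting replicate 4). Hspa5, the chaperone BiP, was at 0, 290.3, 0, 44.3 and 0 CPM at rest and from 2.79 through 629 to 3405 CPM in silent cells, at 3.44 (3.16 to 3.74), or 5.99 without resting replicate 2. Pdia6 (2.73, and 4.61 without resting replicate 5) and Ssr1 (at least 43.7-fold) completed the 4. With the resting cells of both indexes as the comparison Manf was at 1.58, Pdia6 at 1.92 and Ssr1 at 0.97, whereas Hspa5 stayed beyond 4-fold at 2.17. Cytosolic chaperones had 4 of 15 (26.7%, against 14.2% of all genes) higher and 0 lower, with a median of 1.27. Of these, Cct2, Cct3 and Cct6a encode subunits of the CCT folding ring. Cct2 was at 4.25 (3.23 without silent replicate 2 and at least 6.96 without resting replicate 1), Cct3 at 2.84 (3.66 without resting replicate 1 and 3.47 without resting replicate 3) and Cct6a at 2.18 (1.76 without resting replicate 2). Hsph1, named after its values were seen, was the other (log2 bound 6.04, and 5.32 at the lowest on leaving out 1 cell).

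None of 30 nuclear-encoded respiratory genes, 6 mitochondrially encoded ones or 18 actin cytoskeleton genes was 4-fold apart, with medians of 0.23, −0.61 and −0.31. Summed over the actin list, 7 of 10 silent cells lay below every resting cell and 1 above (24730 to 103600 against 39760 to 88970 CPM). In antigen presentation 2 of 10 (20.0%, near the 18.1% of all genes) were lower, Psmb9 (−2.66, and −1.58 without resting replicate 5) and Tap1 (−4.56, and −7.21 to −3.37 on leaving out 1 cell, named after its values were seen), while B2m was at 0.29 and the list's median at −0.05. Of 8 genes of Myc and cell-cycle entry 0 were higher and 2 (25.0%, against 18.1% of all genes) lower, with a median of −0.72. The 2, Mki67 and E2f1, named after their values were seen, each had nearly all resting reads in 1 cell and did not hold without it. Irf1 was the only interferon-response gene of 18 that could be compared (2.51, or at least 4.78 without resting replicate 4 and 1.23 against the resting cells of both indexes). Of 3 death and survival genes compared 1 (33.3%, against 14.2% of all genes), Bcl2a1d, was higher and 0 were lower. Of 20 cholesterol and fatty acid synthesis genes 3 were compared, of which 1 (33.3%, against the same 14.2%) was higher and 0 lower.

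Of 4 nuclear-retained and other RNA quality genes compared, 1 (25.0%, against 18.1% of all genes) was lower and 0 higher. Neat1, the scaffold of paraspeckles, was at 419.9, 1618, 306, 433 and 826 CPM at rest and at 0 to 240.5 CPM in silent cells, so that the states did not overlap (−3.35, interval −3.57 to −3.14, and −2.68 without resting replicate 2). Malat1 was at 5383, 21260, 9520, 9389 and 15670 CPM at rest and at 897, 3233 and 10280 CPM (lowest, median and highest) in silent cells, for −1.71 (−1.75 to −1.68). The summed level of the list was 1388 to 13920 CPM in silent and 9005 to 24930 CPM in resting cells, and its part in the other differences was not tested.

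The largest falls after Alox5 were in genes of varied roles. Gm45713, a predicted gene (at least 334-fold lower), had reads in all 5 resting cells, with 3.78 CPM in replicate 3 and 356 to 472 CPM in the other 4, and in no silent cell. Cops5, a subunit of the COP9 signalosome (at least 329-fold), Incenp, of the chromosomal passenger complex (at least 288-fold), and Smc5, which acts in chromosome maintenance (at least 252-fold), had reads in 4 resting cells and in no silent cell. Some of these cells held a single read. Resting replicates 1 to 5 held 29, 1, 192, 169 and 0 reads of Cops5. They held 1, 1, 198, 0 and 142 reads of Incenp and 1, 0, 1, 133 and 164 of Smc5. Without 1 resting cell the log2 values of Cops5, Incenp and Smc5 were −7.74 (replicate 3), −7.28 (replicate 3) and −7.11 (replicate 5). Tada3 and 1110032A03Rik were carried by 1 resting cell each, with 97.1% and 98.6% of the reads, and were at −3.34 and −2.15 without it. The other falls the rule named, Specc1l, Runx1t1, Atp8a1, Mns1, Enpp5, Tdrd3 and Kif23, had log2 values from −7.84 to −6.91. On leaving out 1 resting cell their smallest falls were −7.15 for Specc1l, −5.79 for Runx1t1, −6.13 for Atp8a1, −6.39 for Mns1, −6.08 for Enpp5, −6.68 for Tdrd3 and −6.32 for Kif23. Arhgap45, a GTPase-activating protein gene, was at 555, 479.5, 15.1, 382 and 845 CPM at rest and at 9.88 and 12.9 CPM in 2 silent cells (−7.55, interval −8.87 to −6.49). Without silent replicate 8 its log2 ratio was −8.56.

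Other genes with large rises served varied roles. Mrpl54, a mitochondrial ribosomal protein gene, had no resting read and was in all 10 silent cells, at 5.70 CPM in replicate 6 and 162 to 764 CPM in the other 9 (at least 169-fold). Tubb4b, a β-tubulin gene (at least 160.3-fold), and Dcun1d5, which acts in neddylation (at least 156-fold), were in 9 silent cells each. Hspa9, the mitochondrial HSP70 gene (at least 129-fold), was in 7, and Pxdc1 (at least 130.3-fold, log2 7.03, and 6.27 without silent replicate 2) in all 10, though at 2 reads or fewer in 4 of them. Hmgn1 and Sdf2 had 2 and 3 reads in the resting cells, with log2 ratios of 7.70 (5.84 to 10.75) and 6.96 (5.40 to 9.24). With the floor they were at 6.21 without silent replicate 1 and 6.13 without silent replicate 11. The resting cells of both indexes brought Mrpl54 to 3.88, Hmgn1 to 2.79, Sdf2 to 2.44 and Tubb4b to 2.13.

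Few genes separated the states cell by cell. Every silent cell was above every resting cell for 8 genes (0.283% of those compared), and below for 11 (0.389%). The 8 were Batf, Gadd45b, Mrpl54, Pxdc1 and Eif2s2, already described, with Mcts1, Ebna1bp2 and Atp5g1. Mcts1, a translation re-initiation factor gene, was at 0 at rest and between 2.98 and 751 CPM in silent cells, and Ebna1bp2, a nucleolar protein gene, between 2.79 and 489 CPM. Atp5g1, a subunit of the ATP synthase ring, was at 0, 342.5, 740.2, 627.5 and 373.5 CPM at rest and between 859 and 2990 CPM in silent cells, at 1.78 (up to 2.04 on leaving out 1 cell). The 11 included Alox5, Gm45713, Arhgap45, Enpp5, Tdrd3 and Neat1, with Tspan32, S100a6, Rab8a and Rps27.

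S100a6, a calcium-binding protein gene, was at 6358, 2039, 3690, 4822 and 1979 CPM at rest and at 0 in 4 silent cells, with a highest value of 1499 CPM (−3.62, interval −3.73 to −3.52). Tspan32, a tetraspanin gene of blood cells, was at 952, 437, 676, 723 and 1382 CPM at rest and at most 218 CPM in silent cells (−3.99). Leaving out 1 cell gave −4.24 to −3.44 for S100a6, −4.57 to −3.73 for Tspan32 and −3.80 to −2.89 for Rab8a (−3.07), a small GTPase gene of vesicle traffic. Rps27, a ribosomal protein gene, was within 4-fold (−1.03) and ranged from 9290 to 13800 CPM at rest and from 2738 to 9248 CPM in silent cells. Mcts1, Ebna1bp2, Atp5g1, Tspan32, S100a6 and Rab8a are named here because their cells did not overlap, and so were chosen after their values were seen.

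The silent cells differed from one another in how many of these genes they held. Of 243 higher genes that met the stricter criteria of size, spread and hold, between 166 (replicate 6) and 226 (replicate 4) had a read in a given silent cell. Of 184 such lower genes, between 99 (replicate 10) and 162 (replicate 11) had no read. Replicate 4 lacked only 103 of the lower genes and replicate 11 held only 178 of the higher ones, and the genes were chosen from these same cells. After thinning each cell to 150000 reads, genes detected ranged from 1995 to 3616 in silent cells (median 2711.5, n = 10) and from 1987 to 2610 in the 4 resting cells deep enough (median 2337). The difference of the medians was 374.5 genes with overlapping ranges, and 256.5 without thinning.

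The silent and resting cells labelled with the IL-13 index (11 and 5 cells) share no cell with those above. The states carry the same names, but silence there was judged by the index cytokine IL-13 in place of IL-5. Of 2873 genes compared there, 492 (17.1%) were higher and 409 (14.2%) lower. Of the 1993 genes compared in both, 271 were higher with the IL-5 index, and 74 of these (27.3%) were also higher with the IL-13 index, where 293 of all 1993 (14.7%) were. The same 74 are 25.3% of those 293. Among 212 lower genes 47 (22.2%) were lower again, against 148 of 1993 (7.43%), and they are 31.8% of the 148. The opposite call was made for 13 of the 271 (4.80%, against 7.43% of all 1993) and for 33 of the 212 (15.6%, near the 14.7% of all 1993).

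Genes called higher in both included Csf2 (8.13 with the IL-13 index), Ccl1 (8.14), Gadd45b (6.85), Calca (4.56), Nfkbia (2.57), Nfkbib (5.68) and Tph1 (9.37), and Alox5 (−7.13) and Klrg1 (−2.24) were lower in both. Il13 was not shared: of the 11 cells silent for IL-13 only 1 held Il13 reads, at 58.5 CPM. Il5 was found in 10 of these 11 cells (0, 66.5 and 805 CPM for the lowest, median and highest), next to 1 of 5 resting cells (93.5 CPM). Batf was at 0.91, with reads in 5 of the 11 cells. Manf (−0.22), Hspa5 (0.02) and Neat1 (−0.39) were near 0 with the IL-13 index, and the difference between the indexes was not tested.

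A set of 108 genes higher in IL-13 silent cells was scored in the IL-5 index cells by their mean log2(CPM + 1). These genes stayed at least 2-fold higher without any 1 cell and had a read in at least 70% of IL-13 silent cells. The first title date and the mean of the cells' own CPM were not used in this choice. The scores of the 5 resting cells (1.95, 3.63 and 3.91 for lowest, median and highest) and of the 10 silent cells (4.69, 5.53 and 6.90) did not overlap. The 79 genes lower in IL-13 silent cells were chosen likewise, with the 70% counted over IL-13 resting cells. For these 79, IL-5 index resting cells scored 3.26 to 4.62 and silent cells 2.09 to 4.16, with medians of 3.95 and 3.10.

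**Figure D4:**
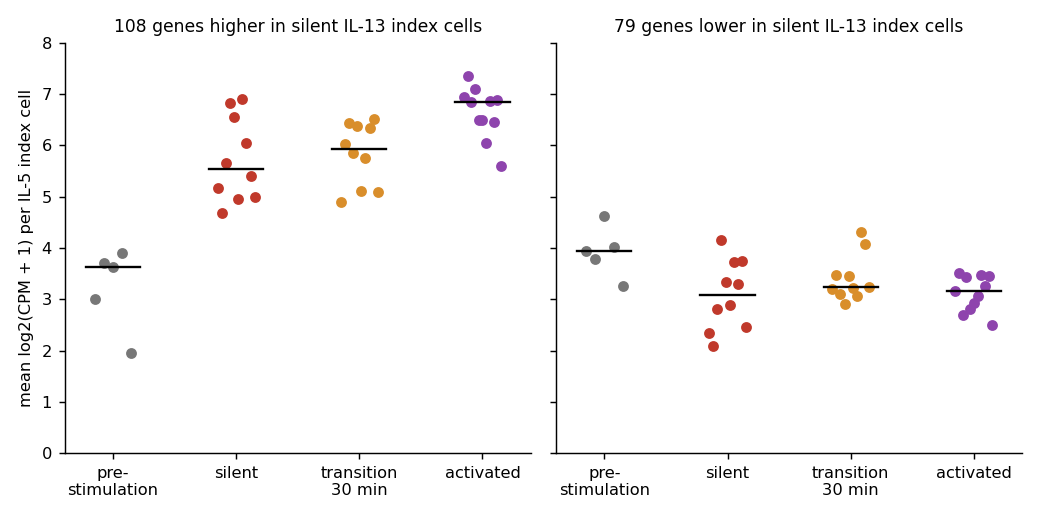
Mean log2(CPM + 1) per IL-5 index cell over 108 genes higher (left) and 79 genes lower (right) in silent than in resting cells of the IL-13 index, with group medians as lines. On the left the silent cells (4.69 to 6.90) lie above the resting cells (1.95 to 3.91), and on the right the ranges overlap.

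Secreting cells of the same index, which were compared with the same resting cells and so are given only as levels, set these values in context. Il5 had a median of 3661 CPM at 30 min after the onset of secretion, 1753 at 60 min, 3363 at 90 min and 1332 in activated cells (63.9 to 11290), against 63.6 in silent cells. Il9 was in all 11 activated cells (27.4 to 229100 CPM) and in 3 of 10 silent cells, at no more than 23.9 CPM. Csf2, at 4077 CPM in silent cells, had medians of 4077, 1728, 4443 and 2696 CPM in the secreting states. Gadd45b was at 2826, 1990, 2042 and 1335 CPM there against 1524 in silent cells, and Batf at 2489, 1375, 1762 and 1274 against 945. Alox5 had reads in 4 of 10 cells at 30 min, 2 of 10 at 60 min, 1 of 11 at 90 min and 0 of 11 activated cells. Klrg1 had a median of 632 CPM at 30 min and 105 CPM in activated cells. For Il5, 6 of 10 silent cells lay below the lowest activated cell.

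**Figure D5:**
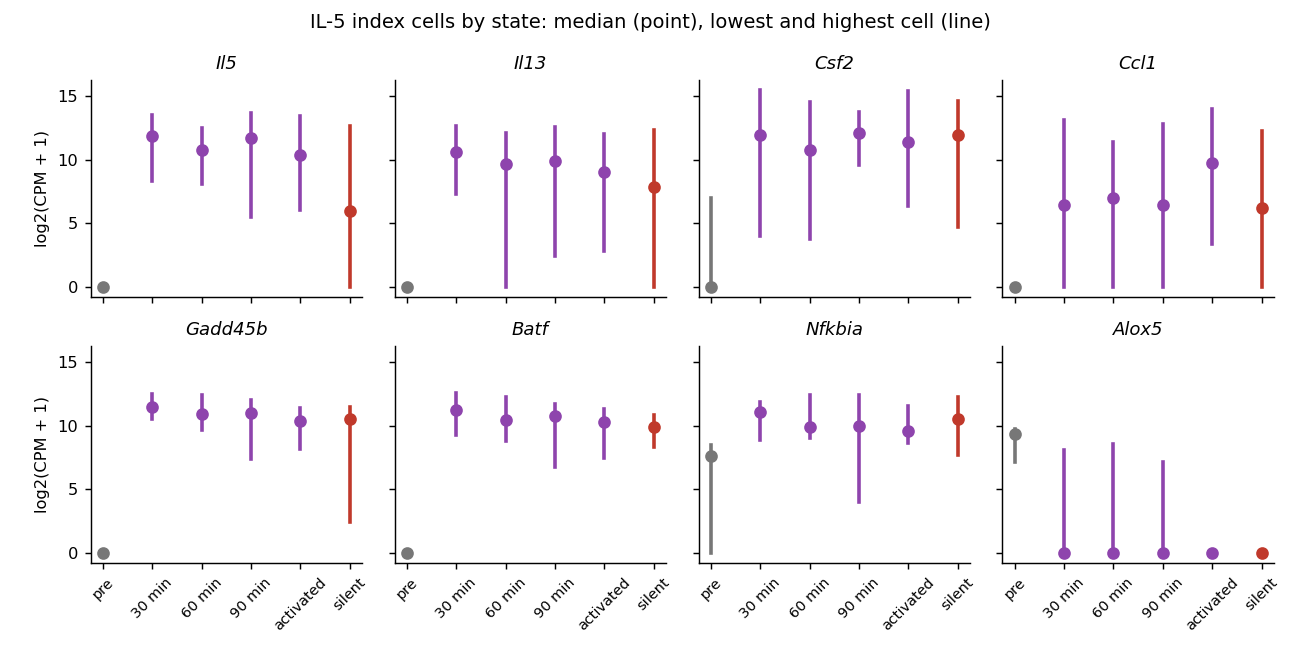
Median (point) and range (line) of log2(CPM + 1) for 8 genes in the 6 states of the IL-5 index: pre-stimulation (n = 5), 30 min, 60 min (n = 10 each), 90 min, activated (n = 11 each) and silent (n = 10). Il5 has a median of 63.6 CPM in silent and 1332 CPM in activated cells, and Alox5 is at 0 in every activated and silent cell.

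The promoter letters shown above were as common in the windows of all genes compared. Among 396 protein-coding higher genes, 333 matched a RefSeq window by symbol, and 24.3% of these windows held the κB pattern, next to 24.2% of 2240 windows of all genes compared and 19.7% of all 27025 windows in the table. The AP-1 pattern stood in 5.41%, 5.58% and 7.82%, and TTCNNNGAA, the pattern bound by STAT factors, in 6.91%, 7.23% and 8.13%. Of the lower genes 78.9% matched, under the 80% needed, so the check was void for them.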

How the data were processed

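Single mILC2 libraries were made with a SMART-Seq 3′ differential expression kit and sequenced on a MiSeq. The authors aligned reads with TopHat (TopHat2 in the submitters' processing notes, version not given in the sources used here) to GRCm38 and counted them per gene with HTSeq, and the deposited values are raw read counts. Each file held 46078 gene identifiers, of which 45229 had a symbol in the GENCODE M21 annotation used here for names and coordinates, and 5 summary rows that name no gene. Over the compared cells 63.61% of the tallied reads lay in genes, 27.49% aligned to more than one place, 6.888% lay in no feature and 2.008% were ambiguous. Values of genes with near-identical copies are therefore uncertain. The summary rows stayed out of library sizes.

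Counts were scaled to CPM and summed per state with Python 3.11.15, numpy 2.4.6, scipy 1.17.1 and pandas 2.3.3 (plots with matplotlib 3.10.9). Cells under 10000 gene reads were dropped. Poisson and Clopper-Pearson intervals are at 95%. A difference was said to hold where it stayed at least 2-fold, in the same direction, without each single cell and by the mean of the cells' own CPM. With 1 sample per state no count model was fitted. edgeR 4.0.16 (TMM) and DESeq2 1.42.0 (R 4.3.3) gave scaling factors only. The ratio calculation was tested on simulated data.

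Genes were named by a rule: Il5, Il13, Il4, Il9, Il6 and Csf2, the 15 largest rises and 15 largest falls with at least 50 CPM and a read in at least 70% of cells of the higher state that held, also in the first title date alone, and up to 4 genes by level and 4 by difference from each of 35 lists. Other genes are marked as named after their values were seen. The members and lists were chosen with earlier results of these data known. Lilrb4a and Snhg1 were not analysed here. Some genes that met the rule are not reported here.

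Alternatives were the scaling, the CPM minimum, the fold, the depth minimum, the pseudocount, the first title date alone, the resting cells of both indexes and leaving out each cell.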

Additional observations from a re-analysis of the deposited data

Results flagged for a closer look

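Cells that stood far from the others of their state were found in 12 of 45 sets of values examined. In 6 of the 12 a single cell held any read, which meets the criterion by construction, so the usual chance rate of about 1 in 20 does not apply. Among resting cells, replicate 3 alone held Csf2 (128 CPM), Psmc1 (3.78 CPM) and Sdf2 (11.3 CPM), and replicate 2 alone held Hmgn1 (6.52 CPM). Replicate 3 was also the low cell for Gm45713 (3.78 CPM) and Arhgap45 (15.1 CPM), and replicate 4 for Atp8a1 (0 CPM).

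Among silent cells, replicate 6 was the low cell for Mrpl54 (5.70 CPM), replicate 11 for Tubb4b (0 CPM) and replicate 10 for Dcun1d5 (0 CPM). Replicate 4 alone held Mns1 (3.35 CPM) and replicate 9 alone held Tdrd3 (11.9 CPM).

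Silent replicate 7, left out for its depth of 2152 reads in genes, held 7 reads of Il5, where the resting cells held none. This corresponds to 3253 CPM with an interval of 1308 to 6702 CPM. The same cell held 13 reads of Csf2, 8 of Tph1, 4 of Il13, 3 of Gadd45b and 0 of Alox5.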

How the results depend on the processing

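No paired analysis was possible because the replicate numbers of the states are names only and no test was run. Of 401 genes higher and 510 lower, a mean of at least 10 CPM gave 1808 and 1286, at least 200 CPM 50 and 69, no minimum 2515 and 1578, and a 2-fold call 703 and 891. An 8-fold call gave 281 higher and 292 lower genes, and the resting cells of both indexes 308 and 324. The share of higher among all called genes went from 44.0% to 58.4% at 10 CPM and 61.5% with no minimum. With the resting cells of both indexes 262 of the 401 and 247 of the 510 kept their call. TMM factors gave 390 higher and 536 lower genes, and a total without mitochondrial and ribosomal protein genes 517 and 687. Leaving out 1 cell gave 373 to 466 higher and 502 to 619 lower genes. The Il5 log2 value of 7.60 was 5.75 for the first title date alone, 5.51 with the resting cells of both indexes, and 5.50 to 7.79 without 1 cell. The difference in genes detected ranged from 167 to 582. Among the 169 genes named by rule other than Il5 and the 30 lists recomputed, no called value changed sign. The other called genes were not recomputed under every alternative. Depth limits values near 1 read per cell.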
